A study of Mus musculus with 15 samples.

Results

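The Wnt and bone morphogenetic protein (BMP) genes described here are the secreted ligands, the receptors and the secreted antagonists of these 2 pathways, as they were measured in the mucosa of the distal colon of mice with chemically induced colitis. Members were the array probes with a gene name of the Wnt, Fzd, Sfrp, Dkk, Rspo, Bmp or Grem families, or Frzb, Wif1, Nog, Chrd, Chrdl1, Bmpr1a, Bmpr1b or Bmpr2. The kinase gene Bmp2k was left out. This rule uses names and no measured value, and it gave 93 of 56605 probes, for 62 genes, of which 61 are described and counted here. All mice were female Balb/cJ, and each array holds the RNA of 1 mouse. The filgotinib group drank 4% dextran sodium sulfate (DSS), which damages the colon lining and brings on colitis, and received the JAK1-preferring kinase inhibitor filgotinib by daily gavage (30 mg/kg). The DSS vehicle group drank DSS and received the vehicle of filgotinib, and the water group drank water without DSS. DSS was given in 3 cycles of 4 days, with washouts of 3 days on plain water, to mice 8 weeks old at the start. A compound label calls the water mice vehicle controls, whereas the design text gives them drinking water only, and the labels do not settle whether they were dosed with vehicle. Each group had 5 mice, so n = 5 in all group values unless another number is given.

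Wnt ligands bind Frizzled receptors and LRP co-receptors at the cell surface. In the canonical branch this stabilises beta-catenin, which acts with TCF/LEF factors to keep the stem and progenitor cells at the base of the colon crypts dividing. BMP ligands bind type 1 and type 2 receptor kinases, act through SMAD factors and favour differentiation toward the crypt top. In the gut wall many of the ligands and antagonists come from fibroblasts and muscle below the epithelium, among them Gremlin and Noggin, which bind BMPs, and the Sfrp, Dkk and Wif1 proteins, which restrain Wnt signalling.

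Signals are given as a percentage of the 75th percentile of all probe signals on the same array. The range of that percentile was 552 to 663 in filgotinib mice, 570 to 667 in DSS vehicle mice and 684 to 813 in water mice, and per array 50.2% to 62.1% of the probes were well above background. The epithelial genes Epcam, Vil1 and Cdhr5 and the colonocyte genes Slc26a3, Car4 and Krt20 were well above background on all 15 arrays, as the labelled colon mucosa requires. A gene was tested when 1 of its probes was well above background on 5 or more of the 15 arrays, and its brightest such probe stood for it. Of the 61 member genes, 36 were tested among 22012 genes, and 23 of the 36 were well above background on all 15 arrays. The 25 untested members were Wnt2b, Wnt3, Wnt3a, Wnt7a, Wnt8a, Wnt8b, Wnt9a, Wnt9b, Wnt10a, Wnt10b, Wnt16, Bmp6, Bmp15, Rspo1, Rspo2, Rspo3, Rspo4, Fzd9, Bmpr1b, Dkk1, Dkk2, Dkk4, Frzb, Sfrp4 and Chrdl1. Of these, 17 were well above background on no array. The 4 R-spondins, which amplify Wnt signals through Lgr receptors, reached it on at most 3 arrays, so no level of theirs is given. A gene was called, and is said to have risen or fallen, at an adjusted p under 0.05 in a limma fit over all 15 arrays, with Benjamini-Hochberg adjustment over the 22012 genes.

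In DSS vehicle mice, compared with water mice, the BMP-family ligand Bmp3 and the Wnt receptor Fzd7 were 3.41-fold and 3.14-fold lower, and the receptor Fzd6 was 1.34-fold lower. The Wnt antagonist Wif1, the BMP antagonist Grem1, the receptors Fzd1, Fzd5 and Fzd10 and the ligand Bmp8a rose. That made 9 of 36 tested members called, or 25%, 6 higher and 3 lower, where 19.2% of all genes were called, 10.8% higher and 8.41% lower. No overlap between the 2 groups was seen for 9 members, or 25%, of which 6 were called, and for 16% of all genes. With 17 members at an unadjusted p under 0.05, the median log2 fold change of the 36 members was 0.42, against 0.05 over all genes. In a scraped mucosa, fewer cells of a type and less RNA per cell cannot be told apart, and this holds for every difference below.

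In filgotinib mice, compared with DSS vehicle mice, Bmp3 and Fzd7 were higher, and Wif1, Fzd10, Fzd1 and the Wnt antagonist Sfrp1 were lower. These 6 of 36 members, or 16.7%, stand beside 11.3% of all genes called, 6.79% higher and 4.53% lower. For 3 members, or 8.33%, the 2 groups did not overlap, as for 7.99% of all genes. At an unadjusted p under 0.05 there were 13 members, and the median log2 fold change was -0.25 over the members and 0.00 over all genes. Bmp3, Fzd7, Wif1, Fzd10 and Fzd1 were called in both comparisons, each in opposite directions. The 2 comparisons share the 5 DSS vehicle mice, so high or low values in those mice enter both, and the values of each comparison are given side by side for that reason. The probes that read these 5 genes are 60 bases long. The first 30 bases of each, which show part of what the array measured, run 5′ to 3′ as follows, with positions in the mouse build mm9 named by the file headers.
Bmp3 (chr5:99308890-99308919, plus strand): agaatgtagtgctcaaagtctaccctaaca
Fzd7 (chr1:59543192-59543221, plus strand): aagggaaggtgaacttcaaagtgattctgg
Wif1 (chr10:120537079-120537108, plus strand): ggctgatatctactcttccttttaggtttt
Fzd10 (chr5:129109798-129109827, plus strand): ttgactctctgaattgttaaacaaatgatt
Fzd1 (chr5:4754033-4754062, minus strand): caaatgccgatacatacataggacctaaat

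Among the ligands, Bmp3 was the 1 called in both comparisons. Bmp3 is an atypical member of the BMP family that binds the activin type 2 receptors and dampens the activity of other BMPs. Its signal was 116, 138, 152, 85.0 and 139% of the 75th percentile in filgotinib mice 1 to 5, 42.1, 62.7, 35.9, 31.2 and 34.3% in DSS vehicle mice 1 to 5, and 214, 117, 106, 144 and 123% in water mice 1 to 5. Every DSS vehicle mouse lay below every mouse of the other 2 groups, and filgotinib and water mice overlapped. Bmp3 fell by 1.77 ± 0.22 on the log2 scale (SE) in DSS vehicle mice against water mice (adjusted p = 0.000266, limma). It was higher by 1.63 ± 0.22 in filgotinib mice than in DSS vehicle mice (adjusted p = 0.00109, limma). All 3 Bmp3 probes were called in the same direction in both comparisons, with log2 fold changes between -2.15 and -1.77 in DSS vehicle against water mice and between 1.61 and 1.86 in filgotinib against DSS vehicle mice. Both exact two-sided permutation tests gave p = 0.00794, the smallest that 5 against 5 mice can give.

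Bmp8a, a BMP ligand best known from germ cells in mice, read 153, 139, 168, 205 and 151% in filgotinib mice 1 to 5, 210, 185, 210.2, 194 and 172% in DSS vehicle mice, against 170, 144, 154, 134 and 126% in water mice. All DSS vehicle mice were above all water mice, by a narrow margin, and the filgotinib mice overlapped both groups. Bmp8a rose by 0.42 ± 0.11 in DSS vehicle against water mice (adjusted p = 0.0164, limma), while filgotinib against DSS vehicle mice gave -0.26 ± 0.11 (adjusted p = 0.134). The call was lost with median scaling (adjusted p = 0.0567) and with the scan day as a block (adjusted p = 0.0617). Its close paralog Bmp8b gave 1.096 ± 0.38 in DSS vehicle against water mice (adjusted p = 0.06). How much signal the probes of these similar genes share was not tested.

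No Wnt ligand was called by limma in either comparison in the main fit, with 8 of the 19 Wnt genes tested, but some were called in alternatives. At an unadjusted p under 0.05 there were 2 in filgotinib against DSS vehicle mice and 3 in DSS vehicle against water mice. Wnt5a, a mostly non-canonical ligand made by gut fibroblasts, read 1.24, 19.5, 40.7, 13.01 and 4.82% in filgotinib mice 1 to 5, 29.2, 26.6, 40.2, 43.1 and 39.3% in DSS vehicle mice, against 15.7, 5.19, 4.09, 9.63 and 19.3% in water mice. Every DSS vehicle mouse was above every water mouse, and the filgotinib mice reached from below all water mice into the DSS vehicle range. The signals of filgotinib mice 1 and 5 and of water mouse 3 were not well above background. The fit gave 1.95 ± 0.74 for DSS vehicle against water mice (adjusted p = 0.0803, limma) and -1.95 ± 0.74 for filgotinib against DSS vehicle mice (adjusted p = 0.101). A second Wnt5a probe gave 2.19 in DSS vehicle against water mice and passed when single probes were tested (adjusted p = 0.0147). In that comparison limma also called Wnt5a with normexp background correction (adjusted p = 0.00435) and in the deposited log2 values (adjusted p = 0.0324). The mean over its probes (adjusted p = 0.0362) and a fit of the 2 groups alone (adjusted p = 0.00928) gave the call as well. Wnt7b, an epithelial ligand, was also without overlap, at 15.7 to 19.3% in DSS vehicle mice and 13.1 to 15.01% in water mice, with a log2 fold change of 0.27 ± 0.09 (adjusted p = 0.0525). Wnt11, a non-canonical ligand, gave 0.48 ± 0.17 (adjusted p = 0.0648). With normexp background correction limma called Wnt7b (adjusted p = 0.0388), Wnt11 (adjusted p = 0.00895) and Wnt2 (adjusted p = 0.00715) as higher in DSS vehicle mice. Over all genes that correction called 3536 higher and 1783 lower in this comparison. Wnt2 was well above background on only 3 DSS vehicle arrays and 1 water array. Wnt1 and Wnt6 differed little between groups, with log2 fold changes between -0.13 and 0.13 in these comparisons.

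The other BMP ligands were not called. Bmp2, a ligand that epithelial cells make toward the crypt top, lay at 1176 to 1993% in filgotinib mice, 1409 to 1884% in DSS vehicle mice and 1488 to 2520% in water mice, so all groups overlapped widely. Bmp1, a protease that processes procollagen and cleaves Chordin rather than a true BMP ligand, gave 0.02 ± 0.07 in DSS vehicle against water mice by its brightest probe. A second Bmp1 probe gave 0.36 and passed (adjusted p = 0.0137, limma over single probes), so the probes of this gene disagree. Bmp10, best known from the heart, gave -0.08 ± 0.15. The ligands Bmp4, Bmp5 and Bmp7 varied strongly between mice of a group and are described with the other members of that kind.

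Fzd7, the Frizzled receptor best known for its role in intestinal stem cells, was the receptor with the largest change among those called in both comparisons. It read 29.8, 15.4, 20.9, 12.7 and 22.9% in filgotinib mice 1 to 5, 7.25, 7.21, 10.9, 6.71 and 12.1% in DSS vehicle mice, against 27.6, 30.7, 23.3, 24.6 and 29.1% in water mice. The DSS vehicle mice lay below all mice of both other groups, and the filgotinib mice reached from just above the DSS vehicle mice into the water range. Fzd7 fell by 1.65 ± 0.22 in DSS vehicle against water mice (adjusted p = 0.000398, limma). In filgotinib mice it was higher by 1.18 ± 0.22 than in DSS vehicle mice (adjusted p = 0.00553). The exact permutation p was 0.00794 in each comparison. With normexp background correction both calls held at smaller sizes, -0.88 in DSS vehicle against water mice (adjusted p = 0.000443) and 0.68 in filgotinib against DSS vehicle mice (adjusted p = 0.00568).

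Fzd1, Fzd5 and Fzd10, further Frizzled receptors, were higher in DSS vehicle mice than in water mice. Fzd1 read 141, 135, 160.2, 201 and 131% in filgotinib mice 1 to 5, 221, 193, 186, 210.2 and 190% in DSS vehicle mice, against 146, 161, 119, 143 and 143% in water mice. All DSS vehicle mice were above all water mice, and 4 of 5 filgotinib mice were below all DSS vehicle mice. Fzd1 rose by 0.49 ± 0.11 in DSS vehicle against water mice (adjusted p = 0.00913, limma) and fell by 0.40 ± 0.11 in filgotinib against DSS vehicle mice (adjusted p = 0.0394). Leaving out any 1 of 9 mice took the second call away, namely filgotinib mice 1, 2 and 5, DSS vehicle mice 1, 2, 4 and 5 or water mice 4 and 5, with log2 fold changes between -0.41 and -0.34 and adjusted p between 0.0522 and 0.1. It was also lost with median scaling (adjusted p = 0.112), without the filter on dim probes (adjusted p = 0.0911), with the replicate number as a block (adjusted p = 0.0633) and in a fit of the 2 groups alone (adjusted p = 0.0779).

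Fzd10 was measured close to background. Its signal was 5.17, 6.24, 3.74, 3.73 and 2.67% in filgotinib mice 1 to 5, of which mouse 2 alone was well above background, 11.7, 9.75, 7.47, 7.33 and 6.02% in DSS vehicle mice, against 5.48, 3.99, 5.32, 6.26 and 4.49% in water mice. DSS vehicle mouse 5 overlapped both other groups and the other 4 DSS vehicle mice stood above them. Fzd10 rose by 0.70 ± 0.22 in DSS vehicle against water mice (adjusted p = 0.0412, limma), and its log2 fold change was -0.99 ± 0.22 in filgotinib against DSS vehicle mice (adjusted p = 0.0135). The rise lost its call when 1 of DSS vehicle mice 1, 2, 3 and 4 or water mice 1, 2, 3 and 5 was left out, with values between 0.58 and 0.75 and adjusted p between 0.0542 and 0.102. It was also lost with median scaling (adjusted p = 0.0824), quantile normalization (adjusted p = 0.0745), no filter on dim probes (adjusted p = 0.0599), the slide as a random block (adjusted p = 0.0631) or the scan day as a block (adjusted p = 0.0778). The difference between filgotinib and DSS vehicle mice kept its call without any 1 of the 15 mice. With normexp background correction that difference shrank to -0.20 (adjusted p = 0.241).

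Fzd5, a Frizzled receptor active in Paneth cell maturation in the mouse small intestine, read 141, 110, 102, 149 and 113% in filgotinib mice 1 to 5, 186, 176, 150, 124 and 155% in DSS vehicle mice, against 116, 108, 118, 103 and 127% in water mice. DSS vehicle mouse 4 fell within the water range and the other 4 were above it. Fzd5 rose by 0.45 ± 0.13 in DSS vehicle against water mice (adjusted p = 0.0217, limma), and a second probe gave 0.55 (adjusted p = 0.00232, limma over single probes). Filgotinib against DSS vehicle mice gave -0.36 ± 0.13 (adjusted p = 0.0739). Leaving out DSS vehicle mouse 1 or 2 or one of water mice 2 and 4 took the call away, with values between 0.39 and 0.44 and adjusted p between 0.0502 and 0.0577, as did median scaling (adjusted p = 0.108).

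Fzd6, a receptor linked to planar cell polarity and hair patterning, read 38.7, 37.2, 34.7, 24.9 and 32.9% in filgotinib mice 1 to 5, 30.2, 26.0, 28.1, 26.7 and 29.7% in DSS vehicle mice, against 44.9, 34.6, 40.0, 33.9 and 36.1% in water mice. All DSS vehicle mice were below all water mice, and filgotinib mouse 4 was the lowest of all 15. Fzd6 fell by 0.42 ± 0.11 in DSS vehicle against water mice (adjusted p = 0.0192, limma), and filgotinib against DSS vehicle mice gave 0.25 ± 0.11 (adjusted p = 0.173). The call was lost with normexp background correction, at -0.27 (adjusted p = 0.0544), and with the scan day as a block (adjusted p = 0.0516). Fzd4, which also binds Norrin in blood vessels, gave 0.43 ± 0.14 in DSS vehicle against water mice (adjusted p = 0.0514), close to the threshold on the other side. Fzd3 and Fzd8 gave 0.16 and -0.19 and were not called. The BMP receptors Bmpr1a and Bmpr2 were well above background on all arrays and nearly constant by their brightest probes. These gave log2 fold changes of 0.10 ± 0.09 and -0.05 ± 0.07 in DSS vehicle against water mice. In filgotinib against DSS vehicle mice they gave -0.01 and 0.03. A second Bmpr1a probe gave -0.27 there (adjusted p = 0.0947, limma over single probes). Further Bmpr2 probes gave -0.26 (adjusted p = 0.258) and -0.39 (adjusted p = 0.136), and none was called.

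Of the Wnt antagonists, Wif1, which binds Wnt ligands outside the cell, was the 1 called in both comparisons. It read 19.6, 21.2, 12.9, 9.15 and 11.4% in filgotinib mice 1 to 5, 30.0, 31.5, 33.1, 23.9 and 33.7% in DSS vehicle mice, against 18.7, 16.7, 18.2, 17.3 and 16.7% in water mice. Every DSS vehicle mouse was above every mouse of both other groups, the water mice lay close together, and filgotinib mice 3, 4 and 5 were below all water mice. Wif1 rose by 0.79 ± 0.19 in DSS vehicle against water mice (adjusted p = 0.0127, limma), and its log2 fold change was -1.10 ± 0.19 in filgotinib against DSS vehicle mice (adjusted p = 0.00435). Filgotinib against water mice gave -0.31 ± 0.19 (adjusted p = 0.306). With normexp background correction the difference between filgotinib and DSS vehicle mice was -0.63 and kept its call (adjusted p = 0.00413).

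Sfrp1, a secreted protein that resembles the Wnt-binding part of Frizzled, read 41.8, 33.7, 38.3, 26.7 and 36.4% in filgotinib mice 1 to 5, 41.6, 57.5, 49.2, 47.3 and 63.3% in DSS vehicle mice, against 41.0, 52.3, 36.6, 34.5 and 43.2% in water mice. Filgotinib mouse 1 and DSS vehicle mouse 1 had nearly the same value, and otherwise these groups were apart. Its log2 fold change in filgotinib against DSS vehicle mice was -0.55 ± 0.15 (adjusted p = 0.028, limma), and DSS vehicle against water mice gave 0.32 ± 0.15 (adjusted p = 0.138). The call was lost without filgotinib mouse 2 or 5 or DSS vehicle mouse 2 or 5, with log2 fold changes between -0.56 and -0.47 and adjusted p between 0.0532 and 0.068. Median scaling (adjusted p = 0.0502), no filter on dim probes (adjusted p = 0.0637), the scan day as a block (adjusted p = 0.0565) and a fit of the 2 groups alone (adjusted p = 0.0546) also took it away. Sfrp5, a related antagonist, gave -0.28 ± 0.19 in DSS vehicle against water mice (adjusted p = 0.317).

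**Figure D1:**
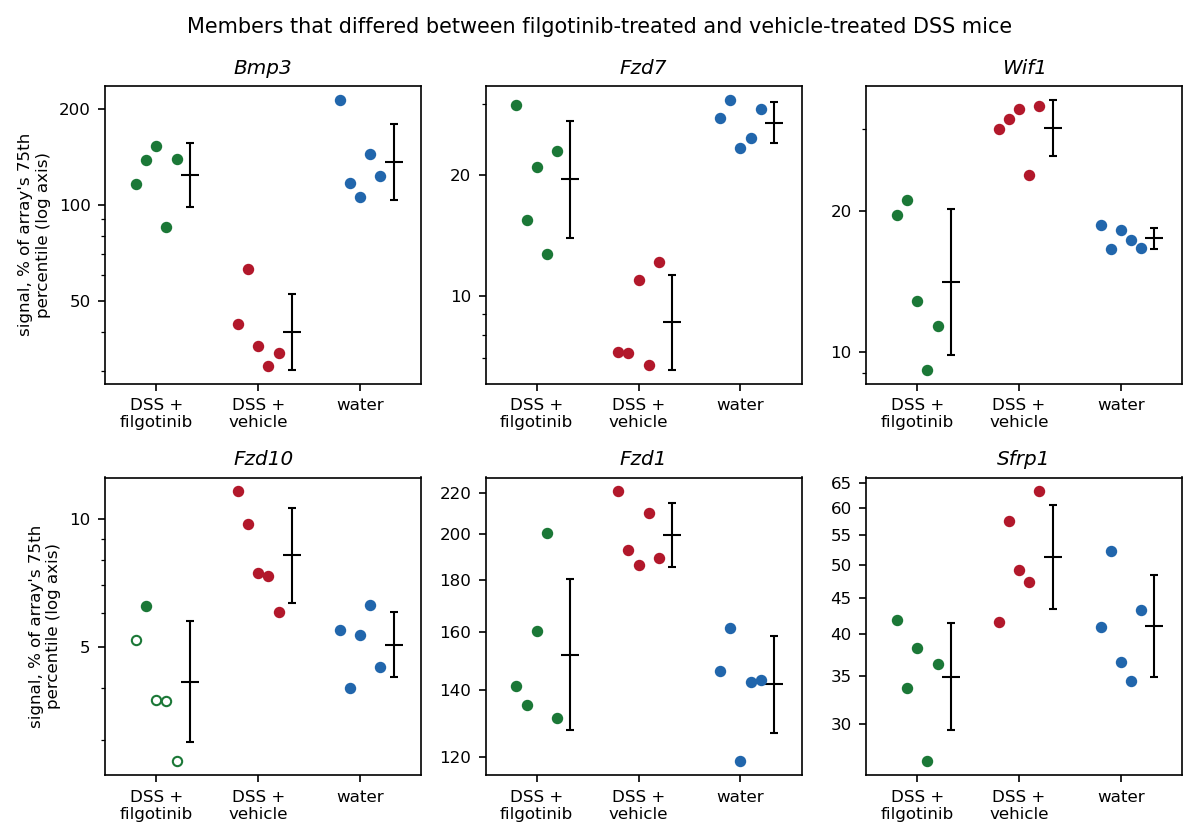
Signal of each mouse as a percentage of the array's 75th percentile, on a log axis, for the 6 members called in filgotinib against DSS vehicle mice. Points are mice in order of their number, open where the probe was not well above background, and bars give the mean ± SD of log2 values (n = 5). In Bmp3 and Fzd7 the DSS vehicle mice sit below both other groups, and in Wif1 they sit above both.

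The BMP antagonist Grem1, which binds BMP2 and BMP4 and is made by gut fibroblasts and muscle, read 1.45, 50.6, 64.1, 13.2 and 26.1% in filgotinib mice 1 to 5, 91.6, 2.88, 22.6, 36.6 and 118% in DSS vehicle mice, against 4.64, 3.09, 2.11, 1.37 and 4.37% in water mice. Filgotinib mouse 1 and DSS vehicle mouse 2 lay within the water range, and all other mice given DSS lay above it. Grem1 rose by 3.42 ± 1.06 in DSS vehicle against water mice (adjusted p = 0.0364, limma), with 2 water arrays and 1 DSS vehicle array not well above background. This call was lost when 1 of DSS vehicle mice 1, 3, 4 and 5 or water mice 2, 3, 4 and 5 was left out, with values between 2.93 and 3.58 and adjusted p between 0.0543 and 0.0885. It also went with the replicate number as a block (adjusted p = 0.0725), the slide as a random block (adjusted p = 0.0623), the scan day as a block (adjusted p = 0.0655) and no filter on dim probes (adjusted p = 0.0578), while normexp kept it at 1.93 (adjusted p = 0.0149). On the only slide that holds both groups, where DSS vehicle mouse 2 is the single DSS mouse, the difference was -0.08. Filgotinib against DSS vehicle mice gave -0.80 ± 1.06 (adjusted p = 0.665).

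Chrd, which sequesters BMPs, was higher in every mouse given DSS than in every water mouse, at 11.2 to 12.8% in filgotinib mice, 10.24 to 15.9% in DSS vehicle mice and 7.06 to 10.21% in water mice. The margin was narrow, and Chrd was not called. Its log2 fold changes against water were 0.33 ± 0.13 in filgotinib mice (adjusted p = 0.108) and 0.32 ± 0.13 in DSS vehicle mice (adjusted p = 0.0975). A second Chrd probe gave 0.15 in filgotinib mice (adjusted p = 0.669, limma over single probes) and 0.38 in DSS vehicle mice (adjusted p = 0.191). Nog, the BMP antagonist Noggin, gave 0.23 ± 0.13 in DSS vehicle against water mice (adjusted p = 0.236).

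**Figure D2:**
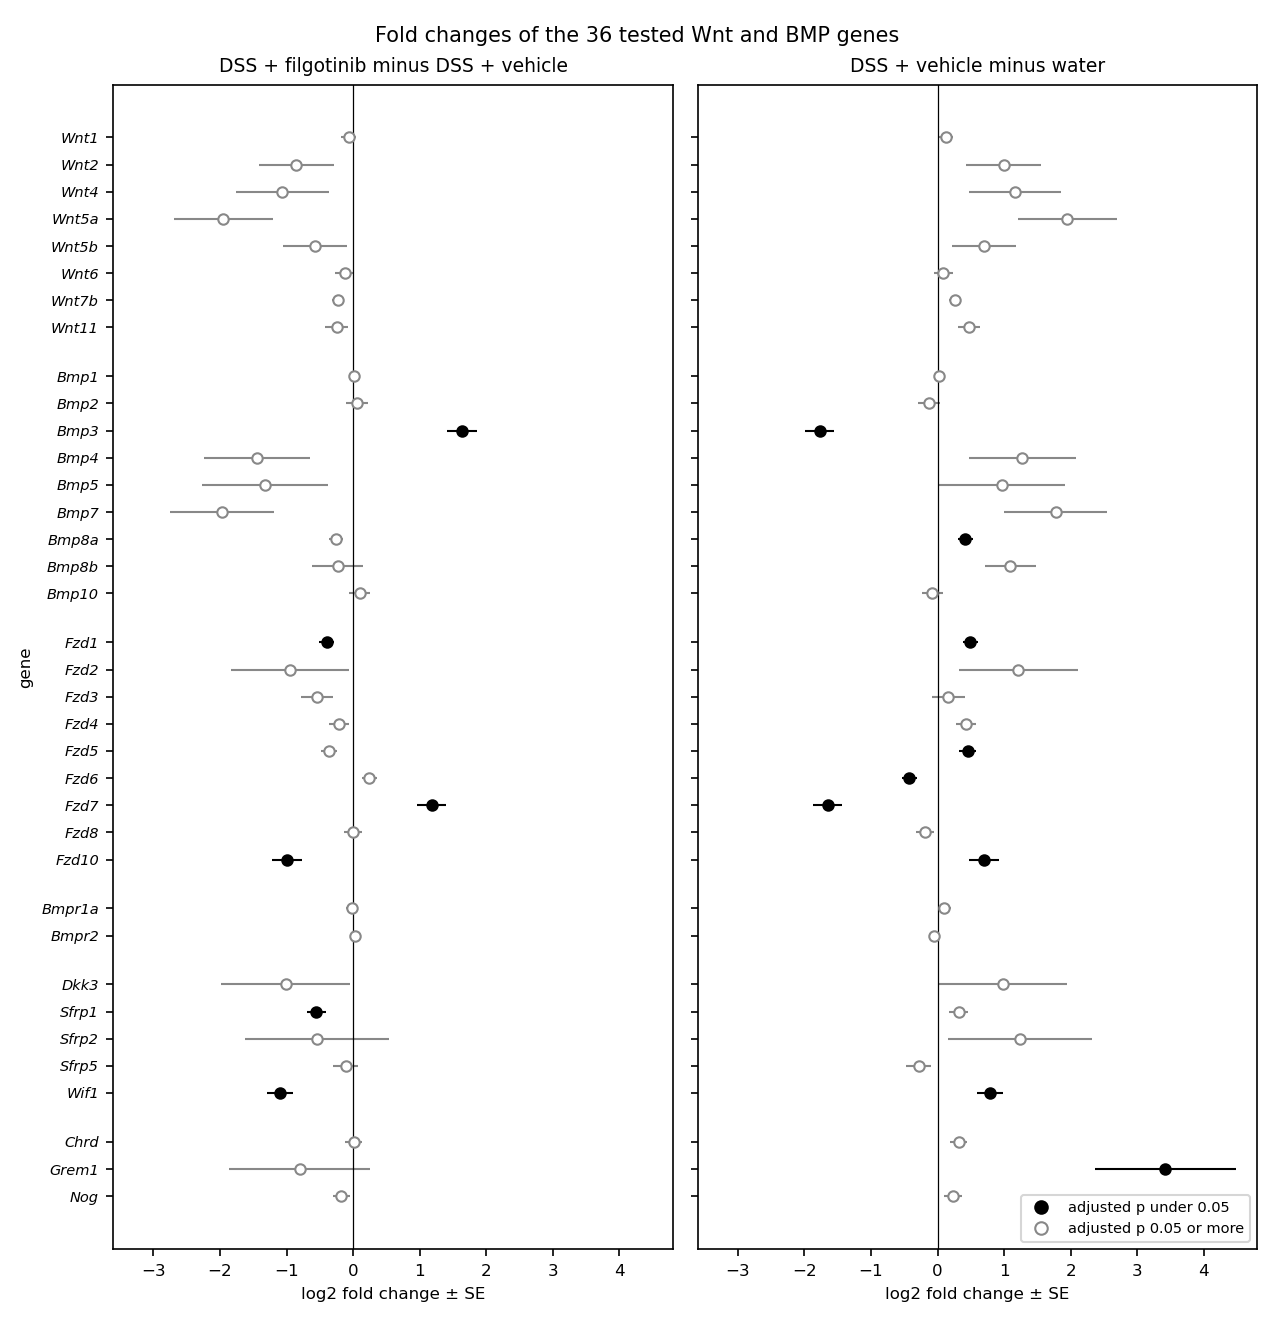
Log2 fold changes with their SE for the 36 tested members, ordered by Wnt ligands, BMP ligands, Frizzled receptors, BMP receptors, Wnt antagonists and BMP antagonists. The left panel gives filgotinib minus DSS vehicle mice and the right panel DSS vehicle minus water mice, with filled points for an adjusted p under 0.05. The panels share the DSS vehicle mice, so mirrored values are built into the pair, and 6 points are filled on the left and 9 on the right.

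In filgotinib mice compared with water mice, no member was called by limma, where 9.83% of all genes were called, 6.42% higher and 3.41% lower. Chrd was the 1 member without overlap between these groups, which 9.57% of all genes showed. At an unadjusted p under 0.05 there were 3 members, and the median log2 fold change was 0.03 over the members and 0.05 over all genes. Bmp3 gave -0.14 ± 0.22 (adjusted p = 0.726), Fzd7 -0.47 ± 0.22 (adjusted p = 0.177), Fzd10 -0.29 ± 0.22 (adjusted p = 0.427) and Fzd1 0.10 ± 0.11 (adjusted p = 0.612). A p over the threshold does not show that the levels were alike, and Grem1, at 2.63 ± 1.06 (adjusted p = 0.12), shows how wide the spread of some members was. With normexp background correction 5 members were called in this comparison, Chrd, Fzd3, Grem1, Wnt11 and Wnt2, all higher. Over all 22012 genes that correction called 3699 higher and 738 lower, with a median log2 fold change of 0.12. Fzd3 gave 0.31 there, against -0.38 in the main fit. Fzd3 was well above background on 1 filgotinib and 4 water arrays, and Wnt2 on 2 filgotinib arrays and 1 water array. Without filgotinib mouse 1, 1 member was called, namely Grem1 at 3.52 (adjusted p = 0.0387).

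Arrays lay on 6 slides. Only slide 2 held filgotinib and DSS vehicle mice together (2 and 3 mice), and only slide 4 held DSS vehicle and water mice together (1 and 2 mice). Within slide 2, filgotinib minus DSS vehicle mice gave log2 differences of 1.83 for Bmp3, 1.35 for Fzd7, -0.50 for Wif1, -0.50 for Fzd10, -0.58 for Fzd1 and -0.41 for Sfrp1. Within slide 4, DSS vehicle minus water mice gave -0.87 for Bmp3, -1.85 for Fzd7, -0.55 for Fzd6, 0.85 for Wif1, 0.41 for Bmp8a, 0.53 for Fzd5, 0.57 for Fzd1 and 1.00 for Fzd10. All of these kept the sign of the whole comparison, which Grem1, at -0.08 within slide 4, did not. With the slide as a fixed block, which leaves these few mice to carry each comparison, 0 members were called by limma in DSS vehicle against water mice (7 at an unadjusted p under 0.05), and 2 in filgotinib against DSS vehicle mice, Bmp3 (adjusted p = 0.0258) and Fzd4 (adjusted p = 0.0447).

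Promoters are shown for the genes called in both comparisons, to set their sequence beside their opposite directions. The table of RefSeq promoters (GRCm38.p6) held Fzd7, Wif1, Fzd10 and Fzd1 of these 5 genes. The 250 bases before each start follow, 5′ to 3′ on the gene's strand, in lower case with each GC box (GGGCGG on either strand, the site bound by SP factors) in capitals.
Fzd7 (chr1:59481897-59482146, plus strand): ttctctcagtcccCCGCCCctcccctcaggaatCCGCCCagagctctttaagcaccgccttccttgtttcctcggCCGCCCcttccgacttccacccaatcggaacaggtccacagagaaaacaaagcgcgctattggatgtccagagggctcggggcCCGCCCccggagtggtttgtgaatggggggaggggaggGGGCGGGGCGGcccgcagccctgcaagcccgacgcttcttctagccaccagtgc
Wif1 (chr10:121033754-121034003, plus strand): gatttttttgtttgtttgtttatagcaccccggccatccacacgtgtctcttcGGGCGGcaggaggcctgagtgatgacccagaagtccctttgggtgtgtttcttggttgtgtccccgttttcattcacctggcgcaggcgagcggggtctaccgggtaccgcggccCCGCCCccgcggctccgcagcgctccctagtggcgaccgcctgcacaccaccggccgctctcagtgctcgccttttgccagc
Fzd10 (chr5:128600856-128601105, plus strand): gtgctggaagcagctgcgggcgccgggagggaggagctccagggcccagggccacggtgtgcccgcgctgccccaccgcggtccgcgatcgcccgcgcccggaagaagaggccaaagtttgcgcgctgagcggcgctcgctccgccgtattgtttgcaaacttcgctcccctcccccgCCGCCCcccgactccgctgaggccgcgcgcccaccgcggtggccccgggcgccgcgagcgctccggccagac
Fzd1 (chr5:4758217-4758466, minus strand): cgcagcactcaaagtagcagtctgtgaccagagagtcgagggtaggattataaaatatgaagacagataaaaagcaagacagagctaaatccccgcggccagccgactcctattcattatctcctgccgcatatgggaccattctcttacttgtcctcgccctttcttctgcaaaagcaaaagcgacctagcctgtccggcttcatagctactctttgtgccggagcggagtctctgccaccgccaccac
The GC box occurred 6 times in Fzd7, 2 times in Wif1, 1 time in Fzd10 and not in Fzd1, and 32.7% of the 32851 promoters of the table held at least 1 in the same window. The core of the TCF/LEF site, CTTTGAT, and the palindrome bound by STAT factors, TTCNNNGAA, which lie downstream of Wnt and JAK signalling, were searched on both strands. Neither occurred in these 4 windows. Among all the RefSeq promoters, 3.21% held the first and 7.02% the second. GC content was 65.2% in Fzd7, 62.8% in Wif1, 76.4% in Fzd10 and 51.2% in Fzd1, beside a median of 52.4% over all promoters.

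Much of the variation among members lay between mice of the same group. For 9 of the 36 members, or 25%, the SD within groups exceeded 1 log2 unit, as it did for 2.37% of all tested genes. They were the ligands Wnt4, Wnt5a, Bmp4, Bmp5 and Bmp7, the receptor Fzd2, and the antagonists Dkk3, Sfrp2 and Grem1. These 9 were chosen for their spread, so what follows describes them. Filgotinib mouse 3 was the highest of its group for all 9 and filgotinib mouse 1 the lowest for all 9. In filgotinib mouse 1 only Bmp4 among them was well above background, so the low end of the spread is not a measured level for the others. Fzd2 and Sfrp2 were each well above background on only 3 DSS vehicle and 2 water arrays. DSS vehicle mouse 5 was the highest of its group for 8 of the 9 and DSS vehicle mouse 2 the lowest for 7.

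Bmp4, a BMP ligand of the fibroblasts next to the epithelium, read 18.4, 176, 458, 63.0 and 34.5% in filgotinib mice 1 to 5, 168, 96.5, 256, 219 and 517% in DSS vehicle mice, against 171, 46.9, 40.3, 67.1 and 260% in water mice. All 3 groups overlapped, and the range within the filgotinib mice was the widest. The fit gave -1.44 ± 0.80 in filgotinib against DSS vehicle mice (adjusted p = 0.257, limma) and 1.28 ± 0.80 in DSS vehicle against water mice (adjusted p = 0.277). Bmp7, a ligand that acts on neighbouring epithelium and stroma, read 1.82, 29.9, 64.5, 19.3 and 5.48% in filgotinib mice, 36.7, 28.5, 69.7, 60.5 and 76.4% in DSS vehicle mice, against 25.6, 8.96, 7.62, 13.8 and 29.9% in water mice. DSS vehicle mouse 2 overlapped the water mice, and the filgotinib mice reached from below all water mice into the DSS vehicle range. The Bmp7 signals of filgotinib mice 1 and 5, the values below the water mice, were not well above background. The fit gave -1.97 ± 0.78 in filgotinib against DSS vehicle mice (adjusted p = 0.114) and 1.77 ± 0.78 in DSS vehicle against water mice (adjusted p = 0.124).

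Dkk3, a member of the Dickkopf family of Wnt modulators, read 3.62, 55.0, 176, 12.2 and 9.59% in filgotinib mice 1 to 5, 36.7, 19.1, 28.0, 34.4 and 202% in DSS vehicle mice, against 44.8, 10.1, 9.79, 14.6 and 70.5% in water mice. Filgotinib mouse 3 and DSS vehicle mouse 5 again stood highest in their groups, and the groups overlapped. The Dkk3 signal of filgotinib mouse 1 was not well above background. Wnt4, a ligand with roles in stroma and kidney, gave -1.06 ± 0.70 in filgotinib against DSS vehicle mice (adjusted p = 0.339, limma), and Sfrp2, an antagonist made by fibroblasts, gave -0.54 ± 1.08 (adjusted p = 0.787). Without filgotinib mouse 3, 10 members were called in filgotinib against DSS vehicle mice in place of 6. The additions were Bmp7 at -2.54 (adjusted p = 0.0328), Wnt5a at -2.49 (adjusted p = 0.0307), Fzd3 at -0.74 (adjusted p = 0.0361) and Wnt7b at -0.29 (adjusted p = 0.0323). Fzd3 was well above background on 1 filgotinib array, that of the mouse left out, and on 2 DSS vehicle arrays. Its value is therefore not a measured fold change. The share of all genes called without this mouse is not given here.

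Fibroblast markers spread in the same mice. Of 22 markers 19 were tested, 14 of these had an SD within groups over 1 log2 unit, and the defining genes Col1a1 and Pdgfra were well above background on 15 and 14 arrays. Their mean log2 signal, relative to the water mean, was -1.78, 0.97, 2.14, -0.09 and -0.79 in filgotinib mice 1 to 5, 0.73, -0.24, 0.82, 0.81 and 2.33 in DSS vehicle mice, against 0.89, -0.92, -0.77, -0.33 and 1.13 in water mice. Filgotinib mouse 1 was the lowest of all mice and DSS vehicle mouse 5 the highest. None of the 19 markers was called by limma in any comparison, and at an unadjusted p under 0.05 there were 3 in DSS vehicle against water mice, 2 in filgotinib against DSS vehicle mice and 0 in filgotinib against water mice. Their median log2 fold change was 1.16 in DSS vehicle against water mice, -0.71 in filgotinib against DSS vehicle mice and 0.05 in filgotinib against water mice, and the part of these cells in the members' values was not tested. The within-group SD of Bmp3, Fzd7 and Wif1 was 0.38, 0.37 and 0.32 log2 units, against 1.27 for Wnt5a and 1.82 for Grem1. Bmp3 was highest of its group in filgotinib mouse 3, and Fzd7 and Wif1 in DSS vehicle mouse 5. These mice led the fibroblast markers in their groups. In the other cases the order differed. Among filgotinib mice Fzd7 was highest in mouse 1, the lowest for the fibroblast markers, and Wif1 in mouse 2. Among DSS vehicle mice Bmp3 was highest in mouse 2, the lowest for these markers. Among water mice the markers led in mouse 5, Fzd7 in mouse 2, and Bmp3 and Wif1 in mouse 1.

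Markers of other cells below the epithelium spread as well. Of 12 smooth muscle markers 10 were tested, and Acta2 and Myh11 were well above background on 15 and 13 arrays. Their mean log2 signal, relative to the water mean, was -0.67, 1.25, 2.03, 0.19 and 0.90 in filgotinib mice 1 to 5, 2.42, -0.60, -0.08, 0.78 and 2.05 in DSS vehicle mice, against 0.60, -0.60, -0.05, -0.52 and 0.56 in water mice. In the filgotinib mice this is the same order of mice as for Grem1, and in the DSS vehicle mice the same 2 mice, 1 and 5, were highest for both. Of 12 endothelial markers 9 were tested, with a mean between -1.03 and 1.502 in filgotinib mice, between -0.54 and 1.66 in DSS vehicle mice and between -0.43 and 0.48 in water mice. Of 15 macrophage and monocyte markers 12 were tested, with a mean between -0.63 and 1.40 in filgotinib mice, between 0.40 and 1.82 in DSS vehicle mice and between -0.44 and 0.68 in water mice. For both lists filgotinib mouse 3 and DSS vehicle mouse 5 were the highest of their groups. Among these lists Ly6c2, a monocyte marker, was the 1 gene called by limma in any comparison, at 1.21 ± 0.21 in DSS vehicle against water mice (adjusted p = 0.00172). The part of these cells in the members' values was not tested.

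**Figure D3:**
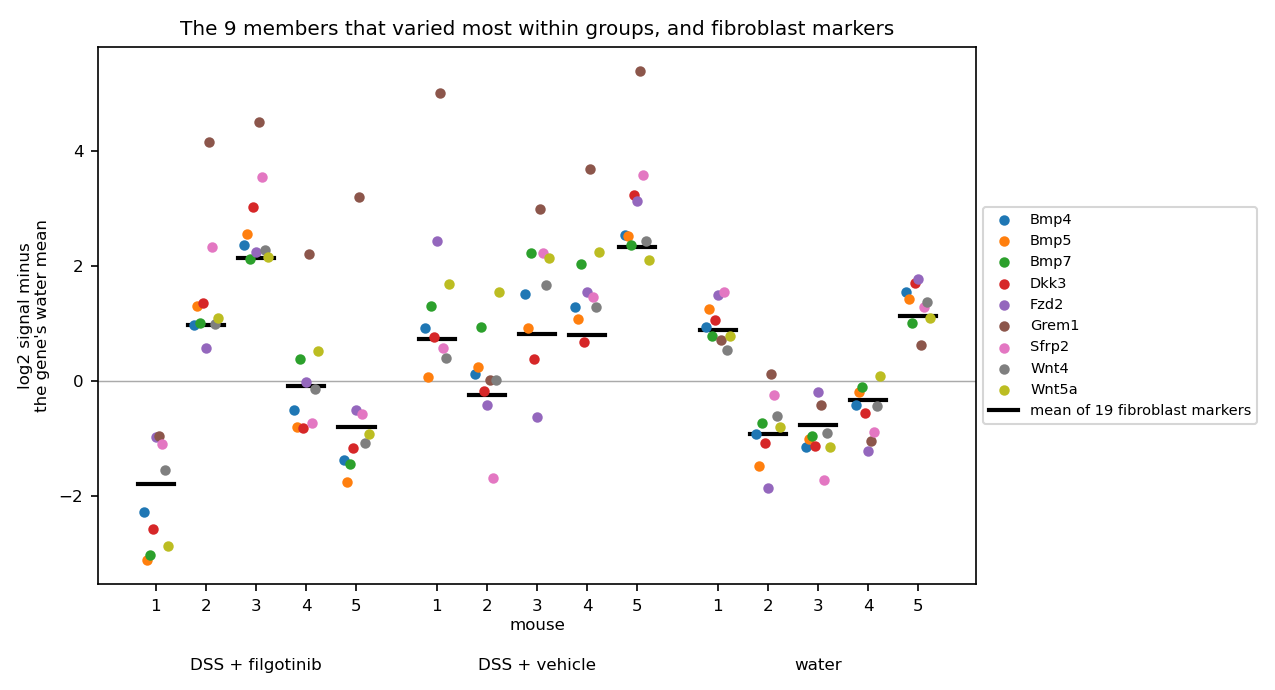
Log2 signal of the 9 members with the widest spread within groups, each relative to its mean in water mice, for mice 1 to 5 of each group. Coloured points are genes, and black bars are the mean of 19 fibroblast markers, which runs from -1.78 in filgotinib mouse 1 to 2.33 in DSS vehicle mouse 5. Filgotinib mouse 3 is the highest of its group and filgotinib mouse 1 the lowest for all 9 genes and for the bar. In the DSS vehicle mice single genes depart from the order of the bars, as Fzd2 does in mouse 3. That Fzd2 signal was not well above background, and the points do not mark which signals were.

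Markers of other cell types also moved with the groups. Among enteric glia and neuron markers, 7 of 12 were tested and their mean level lay between -0.02 and 0.36 in filgotinib mice, between 0.44 and 0.69 in DSS vehicle mice and between -0.11 and 0.07 in water mice (log2 relative to the water mean). Of these 7, Ret, Uchl1 and Tubb3 rose in DSS vehicle against water mice, with Ret at 2.31 ± 0.20 (adjusted p = 1.85e-05, limma), and Ret and Uchl1 fell in filgotinib against DSS vehicle mice. The glial marker Gfap gave -0.33 in DSS vehicle against water mice and was not called, and Sox10, S100b, Nos1 and Vip were among those that did not pass the filter. Of 9 tested markers of the squamous epithelium that borders the distal colon, Krt14 and Dsg3 rose in DSS vehicle against water mice and Krt1 fell in filgotinib against DSS vehicle mice. Their mean lay between -0.07 and 0.59 in filgotinib mice, between 0.31 and 1.26 in DSS vehicle mice and between -0.19 and 0.15 in water mice, and Krt5, a defining marker, was well above background on 0 filgotinib, 3 DSS vehicle and 5 water arrays. Of 10 pan-epithelial markers, 4 rose in DSS vehicle against water mice, and Krt19 rose most, by 0.36 ± 0.06 (adjusted p = 0.0022). In DSS vehicle against water mice these marker levels moved in the direction of Wif1, Fzd10 and Fzd1, and their part in those results was not tested.

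Other genes of the Wnt pathway were taken from lists written from general knowledge. Some genes, among them Lgr5, Rnf43, Znrf3, Apcdd1 and Lef1, are in more than 1 list, so their calls are counted again. Over all genes, 19.2% were called in DSS vehicle against water mice. The shares were 11.3% in filgotinib against DSS vehicle mice and 9.83% in filgotinib against water mice. Of 18 tested Wnt target genes, 2 rose and 6 fell in DSS vehicle against water mice, 0 rose and 1 fell in filgotinib against DSS vehicle mice, and 0 rose and 8 fell in filgotinib against water mice. The median log2 fold changes of the list were -0.22, -0.19 and -0.68 in these comparisons. Axin2, a feedback inhibitor and general readout of canonical Wnt signalling, read 30.7, 21.7, 17.7, 10.8 and 16.1% in filgotinib mice 1 to 5, 15.6, 14.5, 24.9, 24.7 and 12.96% in DSS vehicle mice, against 56.2, 73.4, 62.5, 66.9 and 66.3% in water mice. Both groups given DSS lay below all water mice and overlapped each other. The log2 fold change of Axin2 against water was -1.82 ± 0.25 in filgotinib mice (adjusted p = 0.00252, limma) and -1.86 ± 0.25 in DSS vehicle mice (adjusted p = 0.000386).

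Lgr5, the stem cell receptor for R-spondins, read 1.03 to 1.46% in filgotinib mice, 0.76 to 1.33% in DSS vehicle mice and 29.9 to 54.4% in water mice. It was not well above background on any array of the mice given DSS, and it passed the filter through the 5 water arrays alone. Against water mice it was at least 7.43-fold lower in filgotinib mice and at least 9.02-fold lower in DSS vehicle mice. The limma fit used the signals as read, not these bounds, and gave adjusted p = 1.39e-09 and 5.93e-10. Ascl2, a transcription factor of crypt stem cells, read 5.39 to 19.3% in filgotinib mice, 1.85 to 64.4% in DSS vehicle mice and 373 to 553% in water mice. Of 9 tested crypt stem cell markers, some of which are also Wnt targets, 0 rose and 7 fell in DSS vehicle against water mice, 0 were called by limma in filgotinib against DSS vehicle mice (1 at an unadjusted p under 0.05), and 6 fell in filgotinib against water mice. Their mean log2 signal relative to water lay between -2.21 and -1.70 in filgotinib mice and between -2.48 and -1.61 in DSS vehicle mice. Fzd7 and these markers were both low in DSS vehicle mice, and in filgotinib against DSS vehicle mice Fzd7 was higher by 1.18 ± 0.22. In that comparison Ascl2 gave -0.09 and Axin2 0.04 (adjusted p = 0.949 and 0.938), while Smoc2, a secreted protein of crypt stem cells, gave 1.33 ± 0.53 (adjusted p = 0.119). The difference between these genes was not tested. The targets Lef1, at 1.06 ± 0.31 (adjusted p = 0.0291), and Apcdd1, a Wnt inhibitor, at 1.36 ± 0.44 (adjusted p = 0.0459), rose in DSS vehicle against water mice. Ccnd1, the cell cycle gene cyclin D1, fell in filgotinib against DSS vehicle mice by 1.102 ± 0.19 (adjusted p = 0.00356).

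Receptor partners of the Frizzleds were called in both directions. Of 19 tested Wnt co-receptors, modulators and secretion factors, 2 rose and 5 fell in DSS vehicle against water mice, 1 rose and 1 fell in filgotinib against DSS vehicle mice, and 0 rose and 4 fell in filgotinib against water mice. Ror2, a receptor for Wnt5a, fell by 1.93 ± 0.33 in DSS vehicle against water mice (adjusted p = 0.00183, limma). Rnf43 and Znrf3, the ligases that remove Frizzled from the cell surface, fell by 0.70 ± 0.17 (adjusted p = 0.0133) and by 0.64 ± 0.16 (adjusted p = 0.012) in that comparison. In filgotinib against water mice Rnf43 gave -1.02 ± 0.17 (adjusted p = 0.00725) and Znrf3 gave -0.79 ± 0.16 (adjusted p = 0.0123). Of 29 tested genes of Wnt signal transduction, 3 rose and 3 fell in DSS vehicle against water mice, and 2 rose and 2 fell in filgotinib against DSS vehicle mice. Over all genes 10.8% rose and 8.41% fell in the first comparison, and 6.79% rose and 4.53% fell in the second. Csnk1e, a casein kinase, gave 0.82 ± 0.17 in filgotinib against DSS vehicle mice (adjusted p = 0.0101) and -0.67 ± 0.17 in DSS vehicle against water mice (adjusted p = 0.0169).

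On the BMP side, Id2, a target gene of BMP and of other signals that inhibits differentiation factors, read 408, 295, 286, 223 and 362% in filgotinib mice 1 to 5, 137, 146, 155, 114 and 138% in DSS vehicle mice, against 341, 265, 367, 321 and 272% in water mice. All DSS vehicle mice were below all other mice. Id2 was higher by 1.17 ± 0.15 in filgotinib than in DSS vehicle mice (adjusted p = 0.000714, limma) and fell by 1.18 ± 0.15 in DSS vehicle against water mice (adjusted p = 0.000272). Of 17 tested BMP transduction and target genes, 3 rose and 1 fell in DSS vehicle against water mice, and Id2 was the 1 that rose in filgotinib against DSS vehicle mice. Of 18 tested BMP receptors and extracellular modulators outside the members, 3 rose and 3 fell in DSS vehicle against water mice, and 1 rose in filgotinib against DSS vehicle mice. Beside these lists stand 19.2% of all genes called in DSS vehicle against water mice and 11.3% in filgotinib against DSS vehicle mice. Bambi, a pseudoreceptor that dampens BMP and TGF-beta signals, fell by 1.40 ± 0.19 in DSS vehicle against water mice (adjusted p = 0.000415) and by 0.80 ± 0.19 in filgotinib against water mice (adjusted p = 0.0224).

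**Figure D4:**
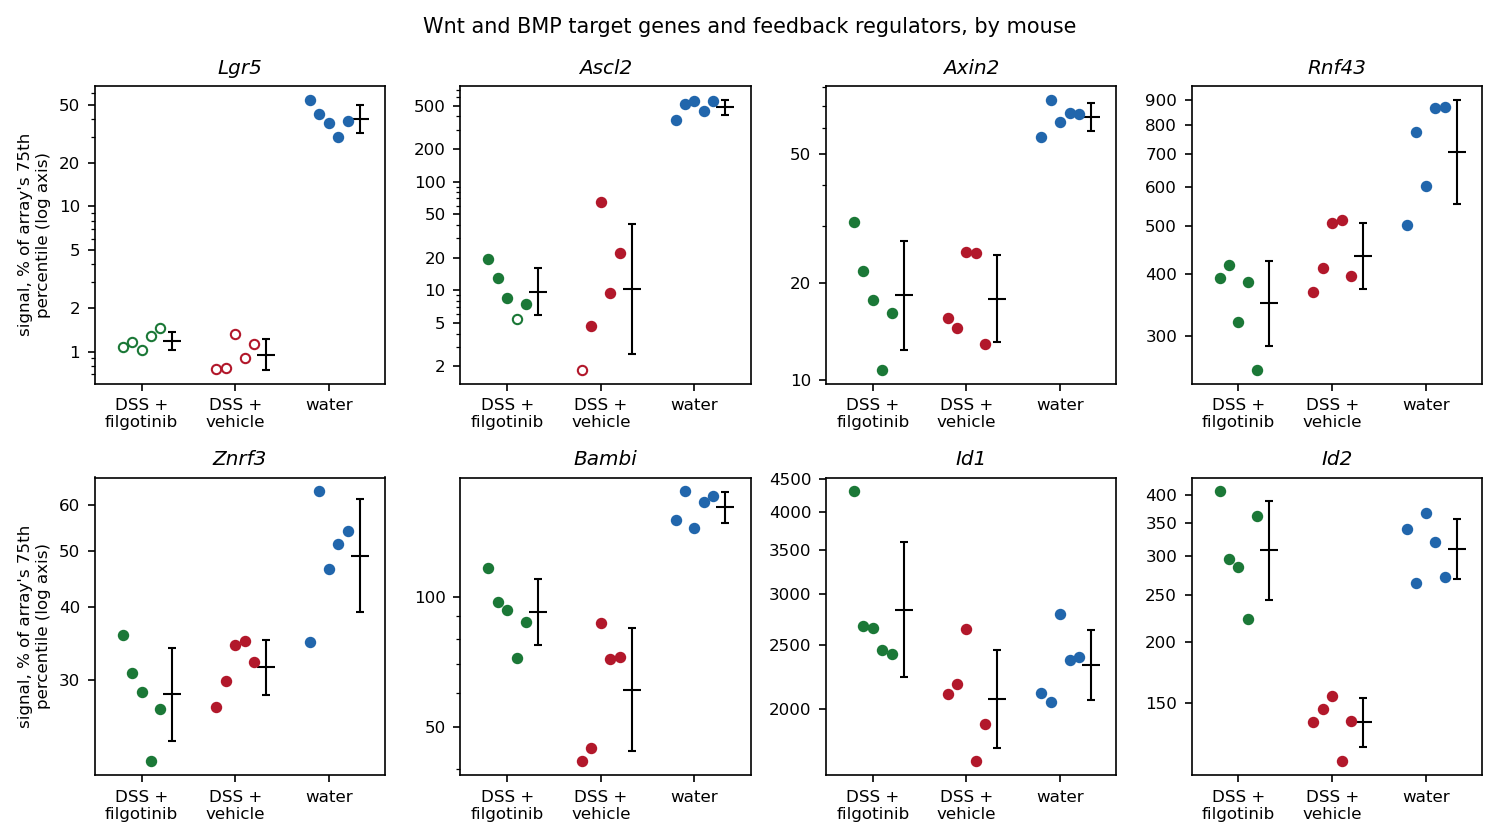
Signal of each mouse, as a percentage of the array's 75th percentile on a log axis, for Wnt targets and feedback genes (Lgr5, Ascl2, Axin2, Rnf43, Znrf3) and for BMP regulators and targets (Bambi, Id1, Id2). Open points were not well above background, and bars give the mean ± SD of log2 values (n = 5). Lgr5, Ascl2 and Axin2 are low in both groups given DSS, whereas Id2 is low in the DSS vehicle mice, between 114 and 155%, and between 223 and 408% in filgotinib mice.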

How the data were processed

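RNA of the scraped mucosa from 30 mm of distal colon was labelled with Cy3 (100 ng per array) and read on 1-colour Agilent arrays, 1 mouse per array. Per the file headers, Agilent Feature Extraction 11.5.1.1 made the deposited intensity of each spot by background subtraction and detrending inside each array, without scaling arrays to each other. The authors also deposited log2 values for the whole series. Their normalization is not given in the sources used here, and they served as an alternative; the submitters' processing notes also name limma, with no version.

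From the deposited intensity, control spots and 101 probes marked as outliers on an array (no member among them) were left out, which left 56504 probes. The main value was log2 of the intensity minus the array's 75th percentile. Of these probes 32939 were named through a RefSeq accession (GRCm38.p6, names only), 10207 by a file name that is a current symbol, 347 through a shared file name, and 13011 had only the name in the file, possibly outdated. A gene was represented by its brightest probe well above background on at least 5 of 15 arrays (22012 genes). Of the tested members, 14 had several such probes.

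Groups were compared with limma 3.58.1 (lmFit, eBayes) in R 4.3.3, in 1 fit over 15 arrays, two-sided, adjusted by Benjamini-Hochberg across the 22012 genes, with calls at an adjusted p under 0.05. Single called members were also tested with an exact permutation test over all splits of the mice. Where a gene was not well above background on all 5 arrays of a group, the change is a bound, "at least N-fold". It sets the brighter group's mean against the dim group's mean of, per array, the higher of 2 values, its own and the lowest signal of any probe well above background. The code was tested on simulated data. Precision is limited by the number of arrays.

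Arrays lay on 6 slides scanned on 4 days. Alternatives changed the scaling, the background correction, the filter, the choice of probe, the slide, scan day or replicate number as a block, the groups in the fit, and left out each mouse. Of the genes the rule for members matched, 1 is not reported here and enters no count of members. The members, the 15 gene lists and the rule for naming genes were chosen with earlier results of these data known. The rule gives every member called in DSS vehicle against water or in filgotinib against DSS vehicle mice with its value in each mouse, other members by single values or ranges, and up to 4 called genes of a list per comparison. The additional genes Gfap and Krt5, the genes drawn by mouse among targets, and the 9 members with a wide spread were chosen after their values were seen.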

Additional observations from a re-analysis of the deposited data

Results flagged for a closer look

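Of 108 combinations of a tested member with a group, 4 held a mouse whose gap to the nearest of the other 4 mice exceeded 0.71 of the group's range, where chance alone gives about 5% of groups. Dkk3 read 202% of the 75th percentile in DSS vehicle mouse 5, against 19.1 to 36.7% in the other 4 DSS vehicle mice. Wnt2, a ligand of stromal cells, read 10.5% in that mouse, against 3.60 to 4.66% in the others. Bmp1 read 90.0% in DSS vehicle mouse 5, against 100.0 to 102.9% in the others. Chrd read 7.06% in water mouse 5, against 9.75 to 10.2% in the other 4 water mice. DSS vehicle mouse 5, which had the highest fibroblast marker level of all mice, accounts for 3 of the 4.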

How the results depend on the processing

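In DSS vehicle against water mice, where 9 members were called, normexp background correction gave 17 (15 higher, 2 lower), the slide as a fixed block gave 0, and median scaling gave 6 (3 higher, 3 lower). In filgotinib against DSS vehicle mice, with 6 members called, the slide block gave 2 and median scaling 4 (2 higher, 2 lower). In filgotinib against water mice, with 0 called, normexp gave 5 and no filter on dim probes gave 7, all 7 of them genes below the filter, with no array well above background. Over all genes of that comparison normexp called 3699 higher and 738 lower, against 1414 and 750 in the main fit. The slide block reversed Grem1 in DSS vehicle against water mice, to -0.0775, as did slide 4 alone. Leaving out each mouse gave 6 to 11, 4 to 10 and 0 to 1 calls in these comparisons, and the highest count of the second, 10, came without filgotinib mouse 3. Of the called members, Bmp3, Fzd7 and Wif1 kept their calls in both comparisons without any 1 mouse. The labels name no pairing of same-numbered mice. Correlations of their deviations from the group means lay between -0.516 and 0.532, with 5 of 15 pairs above 0.1. With the replicate number as a block, 10, 5 and 0 members were called, with Grem1 (adjusted p = 0.0725) and Fzd1 in filgotinib against DSS vehicle mice (adjusted p = 0.0633) lost. Over all genes, the calls in DSS vehicle against water mice were 2369 higher and 1851 lower in the main fit, 956 and 1566 with median scaling, 1909 and 2070 with quantile normalization, 3536 and 1783 with normexp and 2034 and 2114 in the deposited table. The causes of these changes were not tested. Dim members such as Fzd10 and Wnt2 are limited by their signal over background.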

Other observations

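Several genes that shape the same pathways were called outside the members. In the planar polarity branch of Wnt signalling, Celsr1 rose by 0.48 ± 0.07 in DSS vehicle against water mice (adjusted p = 0.000942, limma) and fell by 0.26 ± 0.07 in filgotinib against DSS vehicle mice (adjusted p = 0.0365). Vangl2, a membrane protein of that branch, fell by 1.18 ± 0.24 in DSS vehicle against water mice (adjusted p = 0.00432). Dvl1, which relays the Frizzled signal, gave 0.34 ± 0.09 in filgotinib against DSS vehicle mice (adjusted p = 0.0239) and -0.31 ± 0.09 in DSS vehicle against water mice (adjusted p = 0.0243). Kremen2, a receptor for Dickkopf proteins, fell by 0.69 ± 0.18 in filgotinib against DSS vehicle mice (adjusted p = 0.0273), and Ryk, a Wnt co-receptor, rose by 0.30 ± 0.07 (adjusted p = 0.0128).

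Among BMP modulators, the co-receptor Rgmb fell by 0.57 ± 0.13 in DSS vehicle against water mice (adjusted p = 0.00809, limma) and by 0.52 ± 0.13 in filgotinib against water mice (adjusted p = 0.0248). Acvr2a, a type 2 receptor for activins and some BMPs, rose by 0.31 ± 0.10 in filgotinib against DSS vehicle mice (adjusted p = 0.049). Id4, a BMP target, rose by 1.09 ± 0.23 in filgotinib against water mice (adjusted p = 0.0156) and by 0.71 ± 0.23 in DSS vehicle against water mice (adjusted p = 0.0458).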
